A study of Mus musculus with 16 samples.

Results

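Ionotropic receptor subunits for glutamate, GABA and glycine were examined in the cerebellum of mice that lack Npc1 and of their wild-type counterparts. The set holds 30 genes of the 27962 distinct names on the array: 4 AMPA, 6 NMDA, 5 kainate and 1 delta receptor subunits, 10 GABA-A receptor subunits and 4 glycine receptor subunits. Members were taken by their symbol in the gene name column of the deposited Agilent files, control spots left out, and every probe of each member was kept, which gave 52 probes.

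Arrays came from 4 Npc1-/- mice, homozygous for the mutation of strain BALB/cNctr-Npc1m1N/J, and from 4 Npc1+/+ (wild-type) mice of the BALB/c background. All were 3 weeks old, no treatment is named, and the mutation is carried in the germline and thus in every cell type. Whole cerebellum was frozen, and 500 ng of its total RNA was labelled with Cy3 for 1 one-colour Agilent array of 60-base probes per mouse. The 16 samples of the series also include 8 Illumina bead arrays, whose probe numbers carry no gene names and which were not used here.

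Fast excitation in the brain runs through tetrameric glutamate receptors and fast inhibition through pentameric GABA-A and glycine receptors, and the subunits in each channel set its speed, ion selectivity and place at or outside the synapse. The cerebellum is known for a developmental exchange of subunits as granule cells, its most numerous neurons, mature: NMDA receptors with Grin2b give way to receptors with Grin2a and Grin2c, and granule cells take up Gabra6 and Gabrd, which together form the receptors of tonic inhibition, while Gabra2 and Gabra3 belong to younger cells. In the hindbrain and spinal cord the early glycine receptor subunit Glra2 is likewise followed by Glra1. Loss of Npc1 traps cholesterol in lysosomes and leads to loss of Purkinje cells, the output neurons of the cerebellar cortex.

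The probes on which the results rest are printed from the deposited array files, 5′ to 3′, with mm7 coordinates. Whether they lie in exons, introns or UTRs was not examined, as no annotation of that build was used. The Gria1 and Gria3 probes are shown because they held the longest run shared by probes of different members, 19 bases, set in capitals; the next longest was 11 bases.

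Gria1 A_51_P498031 (chr11:57370973-57371032, plus strand): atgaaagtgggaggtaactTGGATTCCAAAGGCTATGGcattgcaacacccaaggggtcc

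Gria3 A_52_P179309 (chrX:36746442-36746501, plus strand): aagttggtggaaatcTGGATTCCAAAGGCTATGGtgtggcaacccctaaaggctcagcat

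The Grin2b probes are shown because they were designed on 2 different records. The pair designed on clone AK002963 started 440845 bases (A_51_P229869 against A_51_P265765) from the pair designed on transcript NM_008171, and the coordinates of A_51_P265765 in the files cover only 11 of its 60 bases. Whether the clone belongs to the same transcript as NM_008171 was not examined. No part of these or of the following probes is marked.

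Grin2b A_51_P229869 (chr6:136187779-136187838, minus strand): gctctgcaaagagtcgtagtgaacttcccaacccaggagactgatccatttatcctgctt

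Grin2b A_52_P367017 (chr6:136186523-136186582, minus strand): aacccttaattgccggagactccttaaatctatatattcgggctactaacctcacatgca

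Grin2b A_51_P265765 (chr6:135746934-135746944, minus strand): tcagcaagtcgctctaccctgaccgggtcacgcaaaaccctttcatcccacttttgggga

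Grin2b A_52_P248920 (chr6:135747743-135747802, minus strand): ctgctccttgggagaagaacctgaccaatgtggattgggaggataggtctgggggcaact

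The 4 probes below are those of the later subunits Grin2c, Gabrd and Gabra6 and of Glra1. The Glra1 probe had the widest range between arrays of the tested member probes. The Glra1 coordinates span 29764 bases, wider than the probe itself.

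Grin2c A_51_P436269 (chr11:115358402-115358461, minus strand): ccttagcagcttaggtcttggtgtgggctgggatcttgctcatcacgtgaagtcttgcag

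Gabrd A_51_P149623 (chr4:154374596-154374654, minus strand): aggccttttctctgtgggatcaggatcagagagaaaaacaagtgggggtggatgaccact

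Gabra6 A_51_P198335 (chr11:42263338-42263397, minus strand): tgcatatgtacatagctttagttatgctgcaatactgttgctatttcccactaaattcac

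Glra1 A_51_P445532 (chr11:55493234-55522997, minus strand): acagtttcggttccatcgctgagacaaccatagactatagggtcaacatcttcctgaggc

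The Gria2 probes are shown because their signals lay furthest apart among probes of 1 member, and their G and C content was 45.0%, 35.0% and 23.3% in the order printed.

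Gria2 A_52_P575176 (chr3:80793353-80793412, minus strand): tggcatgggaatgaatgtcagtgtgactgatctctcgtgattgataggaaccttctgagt

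Gria2 A_52_P360995 (chr3:80810718-80810777, minus strand): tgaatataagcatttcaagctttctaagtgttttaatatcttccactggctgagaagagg

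Gria2 A_52_P891243 (chr3:80790323-80790382, minus strand): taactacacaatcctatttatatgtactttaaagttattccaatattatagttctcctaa

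Every signal below is a log2 processed signal from which the 75th percentile of its array was subtracted, so a probe at 0 was brighter than 75% of the non-control probes. A log2 fold change is Npc1-/- minus wild type. Of the 41174 probes, 22182 (wild-type replicate 2) to 28137 (Npc1-/- replicate 3) were well above background on an array. A probe entered the limma test if it was so on 4 or more of 8 arrays, which held for 27164, with Benjamini-Hochberg adjustment over all of them and a threshold of 0.05. Npc1 itself had signals of -2.53, -2.44, -2.32 and -2.60 on the Npc1-/- arrays, against -0.52, -0.40, -0.64 and -0.37 on the wild-type arrays (log2 fold change -1.99 ± 0.11 SE, adjusted p = 0.000453). The arrays lay on 4 slides, of which 3 held both genotypes, and were scanned on 2 days. Each wild-type array lay on a different slide. Of the wild types only replicate 2 was scanned on day 2, with Npc1-/- replicates 1 and 4. Among the wild types, array and slide, and for replicate 2 also scan day, cannot be told apart. The labels do not name the mouse behind each array beyond its number, and the precision of every value is limited by 4 arrays a genotype.

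Tissue markers were read beside the receptors, and 0.523% of all tested probes were called. All 17 tested probes of the granule cell list had a lower mean in Npc1-/- cerebellum and 0 passed the test (median log2 fold change -0.21), with Cbln3, a granule cell secreted protein, at -0.34 ± 0.12 (SE, adjusted p = 0.604) and Slc17a7, the vesicular glutamate transporter, at -0.26 ± 0.10 (adjusted p = 0.65). The summed linear signal of that list, in units of the array's 75th percentile, was 112 to 137 on Npc1-/- arrays and 122 to 151 on wild-type arrays. Dividing granule precursor markers were lower in mean at 8 of 8 tested probes and 0 passed (median -0.16, sums of 3.10 to 3.54 on Npc1-/- and 3.43 to 4.02 on wild-type arrays), with the cell cycle gene Ccnd1 at -0.39 ± 0.14 (SE, adjusted p = 0.604), while Atoh1, the precursors' defining factor, was well above background on none of the arrays. Purkinje cell markers summed to 358 to 403 on Npc1-/- arrays and 386 to 519 on wild-type arrays (median log2 fold change -0.20, 0 of 17 probes called; Ppp1r17 at -0.28 ± 0.12 SE, adjusted p = 0.75, and Car8 at -0.54 ± 0.23 SE, adjusted p = 0.761). Oligodendrocyte markers summed to 253 to 308 on Npc1-/- arrays and 335 to 444 on wild-type arrays (median -0.60, 0 of 20 probes called), with the myelin genes Opalin and Mal at adjusted p = 0.0983 and 0.107. Astrocyte and Bergmann glia markers summed to 334 to 359 on Npc1-/- arrays and 340 to 425 on wild-type arrays (median 0.13, 0 of 21 probes called), with the astrocyte filament gene Gfap at 1.08 ± 0.19 (SE, adjusted p = 0.0669). Microglial markers summed to 28.6 to 36.7 on Npc1-/- arrays and 7.67 to 11.4 on wild-type arrays, and 10 of their 18 probes rose, those of C1qa, C1qc, Cd68, Clec7a, Gpnmb, Itgax, Lyz2 and Trem2. In whole tissue, fewer cells of a type and less RNA per cell cannot be told apart, and the part of cell composition in the receptor values was not tested.

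No receptor subunit passed the test in either direction. Of the 52 member probes, 41 from 27 members could be tested, and 0 rose and 0 fell, where 0.523% of all 27164 probes were called (0.504% higher and 0.0184% lower in Npc1-/-). The smallest adjusted p among the member probes was 0.409, for Grin2b. At an unadjusted p under 0.05 there were 2 of 41 member probes, where 6.51% of all probes had such a p. The 41 probes had a median log2 fold change of 0.03, beside -0.01 over all probes tested, and 23 were above 0 and 18 below. The 95% interval reached a median of 0.33 to either side of the estimate for the members, the same as over all probes, and 35 of 41 intervals lay within -1 to 1, of which 22 lay within -0.5 to 0.5. A 2-fold change, or 1 on the log2 scale, was thus outside the interval for those 35 probes.

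**Figure D1:**
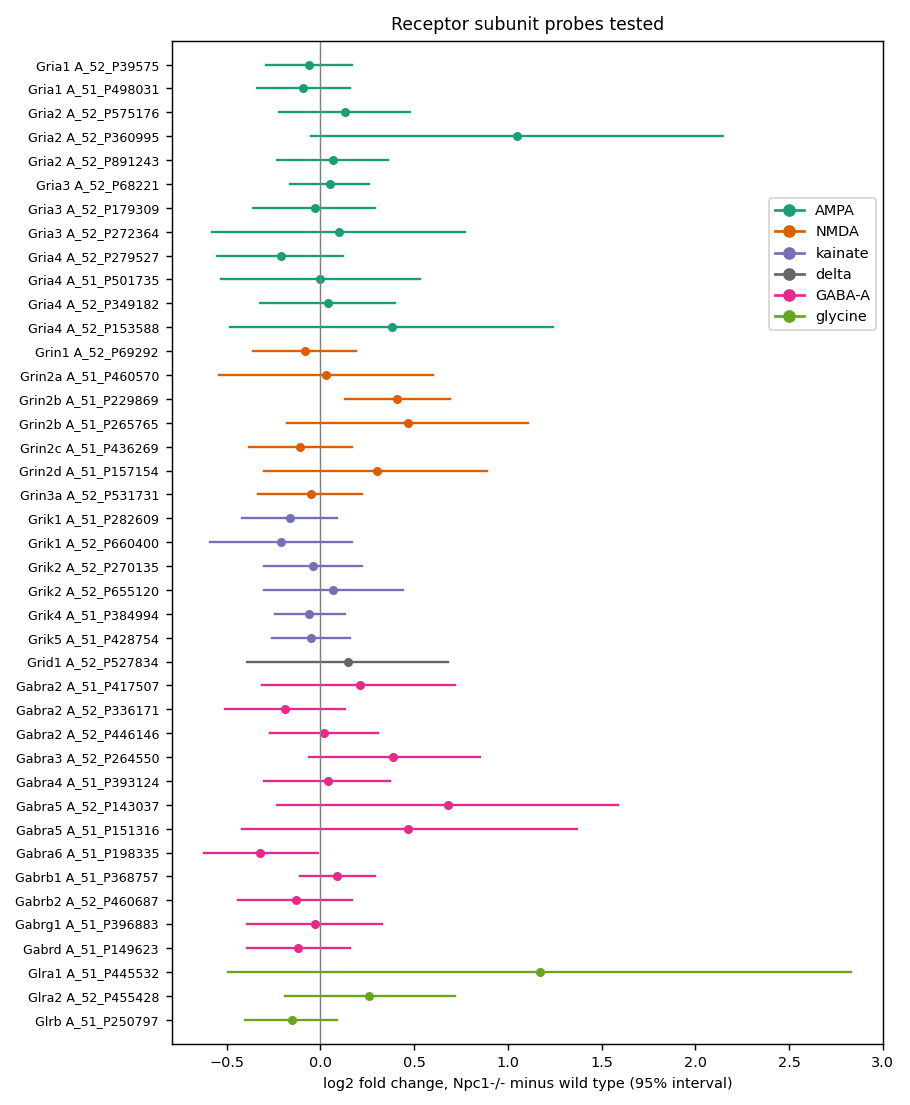
Log2 fold change of each of the 41 tested receptor subunit probes, Npc1-/- minus wild type, with limma's 95% interval, coloured by receptor class. The intervals of Grin2b A_51_P229869 (0.13 to 0.69) and Gabra6 (-0.62 to -0.01) leave out 0, and neither probe passes the adjusted threshold; the interval of Glra1 is the widest, from -0.49 to 2.83.

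By class, the AMPA probes had a median log2 fold change of 0.05 (12 of 12 probes tested, 8 above 0), the NMDA probes 0.03 (7 of 10 tested, 4 above 0), the kainate probes -0.05 (6 of 8 tested, 1 above 0), the single delta probe 0.15, the GABA-A probes 0.03 (12 of 16 tested, 7 above 0) and the glycine receptor probes 0.26 (3 of 5 tested, 2 above 0). None of these classes had a called probe. An absolute log2 fold change of at least 0.5 was reached by 3 of 41 member probes, 1 each for Gria2, Gabra5 and Glra1, where 9.39% of all probes reached it.

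The order of signal was read from the brightest probe of each member. A probe's brightness depends on its sequence as well as on the transcript, so this is an order of signals and only a rough guide to transcript abundance. Grin2c, which gives mature granule cell NMDA receptors their low conductance, was the brightest, at 5.25 ± 0.19 in Npc1-/- and 5.35 ± 0.11 in wild-type cerebellum (SD, n = 4 each), brighter than 99.3% of all probes in both. Gabrd (4.73 ± 0.17 in Npc1-/-, 4.85 ± 0.15 in wild type), Gria1 (4.77 ± 0.11 in Npc1-/-, 4.82 ± 0.11 in wild type), Gabra6 (4.35 ± 0.13 in Npc1-/-, 4.67 ± 0.23 in wild type) and Gria2 (3.78 ± 0.21 in Npc1-/-, 3.65 ± 0.24 in wild type) followed. In wild type the range of Gabrd overlapped with that of Gria1 and the range of Gria1 with that of Gabra6, while Grin2c lay above Gabrd and Gabra6 above Gria2 on every wild-type array.

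The middle of the order was held by Gria4 (2.18 in Npc1-/- and 2.39 in wild type), Glrb (1.99 and 2.15), the kainate subunits Grik4 (1.82 and 1.88) and Grik5 (1.80 and 1.85), Gabra4 (1.62 and 1.58), Gabrb1 (1.29 and 1.20), Gabrg1 (0.59 and 0.62), Gria3 (0.62 and 0.56), Grin3a (0.44 and 0.50) and Grik1 (-0.09 and 0.07), each given as its Npc1-/- and then its wild-type mean. Below the 75th percentile came Gabra2 (-0.41 and -0.61), Grin2d (-0.55 and -0.85), Grin1 (-1.05 and -0.97), Grik2 (-1.06 and -1.02), Gabrb2 (-1.25 and -1.11), Gabra3 (-1.32 and -1.71), Grin2b (-1.87 and -2.28), Glra2 (-2.20 and -2.47), Gabra5 (-2.75 and -3.42), Grid1 (-3.71 and -3.85), Glra1 (-2.88 and -4.05) and Grin2a (-4.47 and -4.50), again as Npc1-/- and then wild-type means. Grik3, Gabrg3 and Glra3 closed the list, and none of their probes was well above background on 4 arrays. Grin1 is the obligatory subunit of every NMDA receptor, and its probe was nonetheless dimmer than those of Grin2c and Grin3a, so signals of different genes were not read as amounts.

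The order was nearly the same in both genotypes. Of the 30 members, 22 held the same rank in Npc1-/- and wild-type cerebellum, and no rank moved by more than 1. In wild type, 20 of the 29 pairs of neighbours had overlapping ranges and 9 did not. The 10 brightest members were the same after another background correction and scaling (normexp with quantile normalization), and 9 of the 10 were kept when all probes of a member were averaged.

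**Figure D2:**
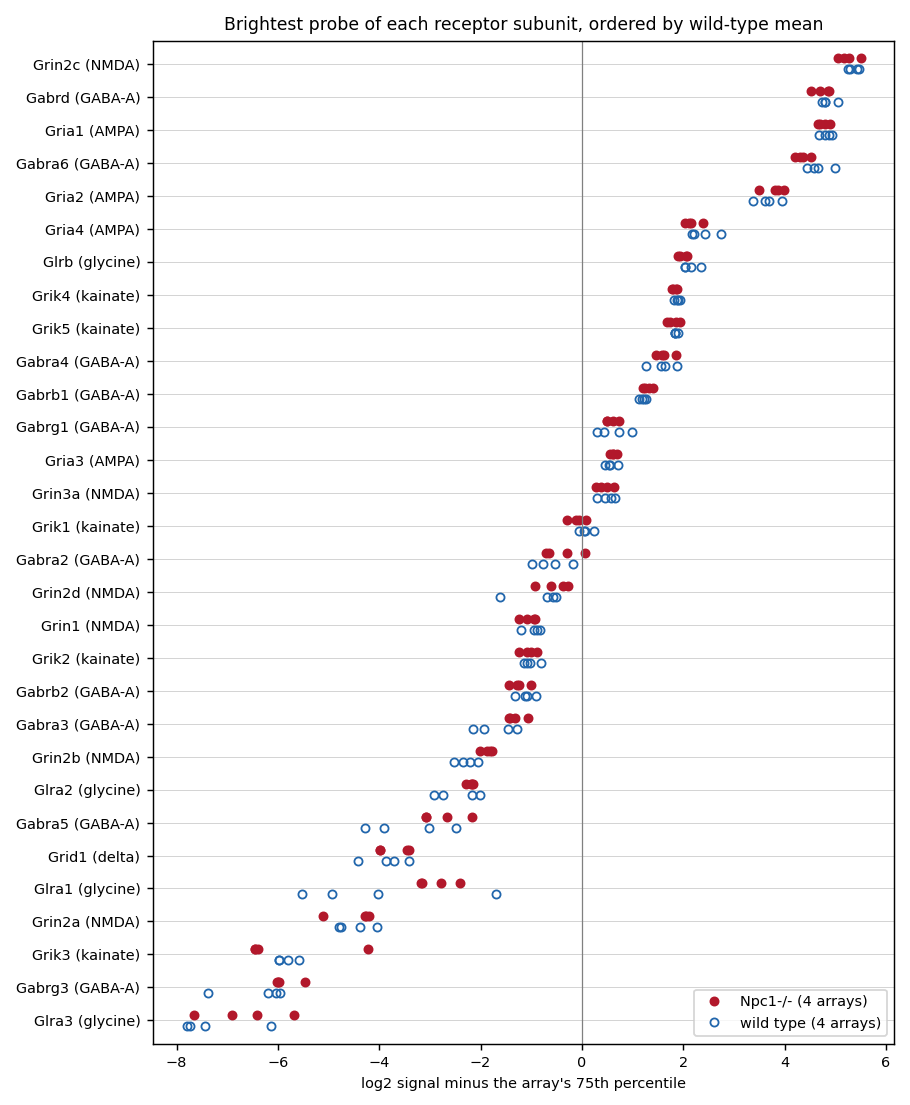
Log2 signal of the brightest probe of each member on each array, as a difference from the array's 75th percentile, Npc1-/- (filled red, 4 arrays) above wild type (open blue, 4 arrays), ordered by the wild-type mean. Grin2c, Gabrd, Gria1, Gabra6 and Gria2 have means above 3 in both genotypes, and Glra1 has the widest wild-type range, from -5.52 to -1.70.

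How far probes of 1 member could differ was measured in the 15 members with more than 1 probe. The brightest and dimmest probe of Gria2 lay 8.36 log2 units apart (328.6-fold), those of Gabrg1 8.28 and those of Grin3a 7.97. By contrast the 2 probes of Gabra5 differed by 0.25 and the 3 of Gabra2 by 0.90. The genotypes, by contrast, differed by at most 1.17 at any tested member probe (Glra1).

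**Figure D3:**
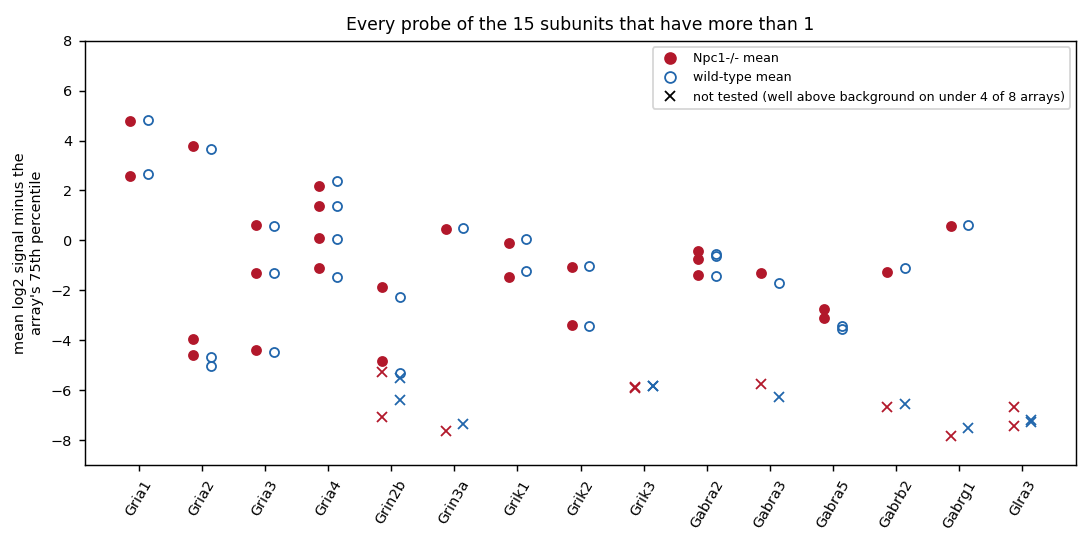
Mean log2 signal of every probe of the 15 members with more than 1 probe, Npc1-/- (filled red) left of wild type (open blue), with crosses for probes that were not tested. Within a member the probes spread over up to 8.36 log2 units (Gria2), while the genotype means differ by at most 1.05 at the tested probes shown (Gria2 A_52_P360995).

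AMPA receptor subunits, which carry most fast excitation, did not separate the genotypes at any of their 12 probes. The brightest Gria1 probe had a log2 fold change of -0.06 ± 0.10 (SE) and a range over all arrays from 4.65 to 4.94, and the probe that shares 19 bases with Gria3 was at -0.09 ± 0.11, from 2.41 to 2.83. The 3 probes of Gria3 lay between -0.03 and 0.10, and a part of the shared run in either gene's signal was not tested.

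Gria2, whose edited form keeps calcium out of AMPA receptors, had 1 probe with a larger difference. A_52_P360995, designed on BC048248, had signals of -4.08, -4.15, -3.19 and -4.47 on Npc1-/- arrays, against -3.95, -5.77, -5.95 and -4.43 on wild-type arrays (log2 fold change 1.05 ± 0.48 SE, adjusted p = 0.80). Wild-type replicates 2 and 3 were low and the other wild-type arrays overlapped with Npc1-/-, and the probe was well above background on 4 Npc1-/- and 2 wild-type arrays. The difference was 0.24 ± 0.12 with normexp, 0.67 ± 0.38 with array weights and 1.37 ± 0.22 with slides as blocks (SE, adjusted p = 0.192 for the last). The other Gria2 probes, both designed on NM_013540, had differences of 0.13 ± 0.15 for the brightest and 0.07 ± 0.13 (SE).

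Gria4, a rapid subunit of granule cells and Bergmann glia, had 4 probes whose differences were -0.21 ± 0.15, 0.00 ± 0.23, 0.04 ± 0.16 and 0.38 ± 0.38 (SE) from the brightest to the dimmest. They disagreed in sign, and every interval held 0.

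Among the NMDA receptor subunits, Grin2b, the subunit of young granule cells, was the one member probe of 41 whose genotypes did not overlap, where 4.35% of all probes had groups that did not overlap. The probe, A_51_P229869, was the one designed on clone AK002963. It had signals of -1.88, -1.81, -1.78 and -2.02 on Npc1-/- arrays, against -2.21, -2.05, -2.52 and -2.34 on wild-type arrays. All Npc1-/- values lay above all wild-type values, and Npc1-/- replicate 4 and wild-type replicate 2 came closest to each other. The log2 fold change was 0.41 ± 0.12 (SE, 1.33-fold), with an unadjusted p of 0.00901 and an adjusted p of 0.409, so the probe did not pass the test.

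A fit with slides as blocks put the same Grin2b probe at 0.39 ± 0.15 (SE). Within the 3 slides that held both genotypes the differences were 0.71, 0.10 and 0.44, each resting on 1 wild-type array (the middle one on wild-type replicate 2). Across 19 alternative settings its log2 fold change ran from 0.23 to 0.49 and its adjusted p from 0.109 to 0.914.

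The remaining Grin2b probes were dimmer. The NM_008171 probe A_51_P265765 had signals of -4.24, -5.07, -5.33 and -4.68 on Npc1-/- arrays, against -5.15, -5.84, -5.39 and -4.81 on wild-type arrays (0.47 ± 0.28 SE, adjusted p = 0.811), and its genotypes overlapped. Its difference was 0.27 ± 0.26 without Npc1-/- replicate 1 and 0.28 ± 0.27 without wild-type replicate 2 (SE). The probes A_52_P248920 and A_52_P367017 were well above background on 3 and 1 of the arrays and were not tested.

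The member probes of the later NMDA subunits did not pass the test. Grin2c had signals of 5.26, 5.18, 5.50 and 5.05 on Npc1-/- arrays, against 5.42, 5.28, 5.47 and 5.24 on wild-type arrays (log2 fold change -0.11 ± 0.12 SE, adjusted p = 0.832). Grin2a had -4.20, -4.26, -4.29 and -5.12 on Npc1-/- arrays, against -4.05, -4.76, -4.80 and -4.39 on wild-type arrays (0.03 ± 0.25 SE, adjusted p = 0.978), with Npc1-/- replicate 4 the lowest of all. Both members overlapped between genotypes.

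The remaining NMDA subunits overlapped too. Grin2d, a subunit of slowly closing receptors found early in development, had -0.93, -0.28, -0.62 and -0.38 on Npc1-/- arrays, against -0.57, -0.51, -1.62 and -0.70 on wild-type arrays (0.30 ± 0.26 SE, adjusted p = 0.811). Wild-type replicate 3 was the low value, and without it the Grin2d difference was 0.04 ± 0.16 (SE). Grin3a, which lowers calcium entry and is high in the young brain, had 0.37, 0.63, 0.27 and 0.50 on Npc1-/- arrays, against 0.30, 0.45, 0.65 and 0.58 on wild-type arrays (-0.05 ± 0.12 SE, adjusted p = 0.911). The obligatory Grin1 had a difference of -0.08 ± 0.12 (SE) and a range over arrays from -1.25 to -0.83.

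No tested probe of the kainate and delta receptor subunits passed the test. Grik4 and Grik5, which need a partner subunit to form a channel, were at -0.06 ± 0.08 and -0.05 ± 0.09 (SE), and Grik4 had the narrowest range of the 52 probes, from 1.78 to 1.94. Both probes of Grik1, a subunit that can form channels alone, had lower means in Npc1-/- (-0.16 ± 0.11 and -0.21 ± 0.17 SE) and did not pass the test. The Grik2 probes were at -0.04 ± 0.12 and 0.07 ± 0.16 (SE), and Grid1, a delta subunit that binds cerebellin proteins at synapses, at 0.15 ± 0.24 (SE). The Grik3 probes ranged from -6.45 to -4.23 and from -6.21 to -4.91.

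Among the GABA-A receptor subunits, Gabra6, a marker of mature granule cells, had the lowest log2 fold change of the member probes. Its signals were 4.30, 4.51, 4.37 and 4.21 on Npc1-/- arrays, against 4.58, 4.44, 4.99 and 4.65 on wild-type arrays. Npc1-/- replicate 2 lay above wild-type replicate 2, so the genotypes overlapped, and wild-type replicate 3 was the highest.

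The Gabra6 difference was -0.32 ± 0.14 (SE), with an unadjusted p of 0.0466 and an adjusted p of 0.761. Fitted with slides as blocks it was -0.28 ± 0.11, and the slides with both genotypes gave -0.48, -0.18 and -0.20. Without wild-type replicate 3 it was -0.21 ± 0.11, and without that array, wild-type replicate 4 and Npc1-/- replicate 4 it was -0.11 ± 0.13. The granule cell list had a median of -0.21 on the same arrays, and a part of granule cell content in the Gabra6 value was not tested.

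Gabrd, the partner of Gabra6 in extrasynaptic receptors, had 4.87, 4.69, 4.86 and 4.51 on Npc1-/- arrays, against 4.80, 4.73, 5.06 and 4.79 on wild-type arrays. The genotypes overlapped, and the log2 fold change was -0.12 ± 0.12 (SE, adjusted p = 0.824).

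The alpha subunits of younger neurons had higher means in Npc1-/- at some probes and did not pass the test. Gabra3 had -1.33, -1.44, -1.43 and -1.07 on Npc1-/- arrays, against -1.93, -1.46, -2.16 and -1.29 on wild-type arrays (0.39 ± 0.20 SE, adjusted p = 0.811). Wild-type replicates 1 and 3 were low, wild-type replicate 2 lay just under the lowest Npc1-/- array, and wild-type replicate 4 lay among the Npc1-/- values. Without wild-type replicate 3 the Gabra3 difference was 0.24 ± 0.17 (SE).

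The brightest Gabra2 probe had -0.30, -0.72, 0.05 and -0.65 on Npc1-/- arrays, against -0.17, -0.76, -0.99 and -0.53 on wild-type arrays (0.21 ± 0.22 SE, adjusted p = 0.829), and the difference ran from 0.05 (without Npc1-/- replicate 3) to 0.35 (without wild-type replicate 1). The 3 Gabra2 probes lay within 2771 bases of each other and disagreed in sign, at 0.21 ± 0.22, -0.19 ± 0.14 and 0.02 ± 0.13 (SE) from the brightest to the dimmest. The file's description of the middle probe, A_52_P336171, names a different product although its gene name is Gabra2.

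Gabra5, known for extrasynaptic receptors and low in the adult cerebellum, had -3.08, -2.66, -3.07 and -2.17 on Npc1-/- arrays, against -3.90, -2.48, -4.29 and -3.01 on wild-type arrays at A_52_P143037 (0.68 ± 0.40 SE, adjusted p = 0.811). Its other probe was at 0.47 ± 0.39 (SE). Wild-type replicates 1 and 3 were again the low ones, and wild-type replicate 2 lay among the Npc1-/- arrays at both probes. Without wild-type replicate 3 the differences were 0.39 ± 0.36 at A_52_P143037 and 0.10 ± 0.27 at A_51_P151316, and without wild-type replicate 2 they were 0.99 ± 0.34 and 0.75 ± 0.36 (SE). Over all alternatives the second probe ran from -0.09 to 0.75, so its sign is not settled.

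The remaining GABA-A subunits stayed close to 0. Gabra4 was at 0.04 ± 0.15, Gabrb1 at 0.09 ± 0.09, the brightest Gabrb2 probe at -0.13 ± 0.13 and the brightest Gabrg1 probe at -0.03 ± 0.16 (SE). Gabrg3 had signals from -7.39 to -5.46 and was not tested. The probes of Gabrg1, Gabra2, Gabra4 and Gabrb1 lie in 1 cluster on chromosome 5, whose brightest probes span 1383626 bases, and these neighbours did not share a direction beyond their errors.

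Among the glycine receptor subunits, Glra1 had the largest difference and the largest SE of all tested member probes. Glra1, the adult alpha subunit of hindbrain and spinal cord, had signals of -3.17, -2.78, -3.16 and -2.41 on Npc1-/- arrays, against -4.93, -1.70, -5.52 and -4.03 on wild-type arrays. Wild-type replicate 2 was the highest of all arrays and the other wild-type arrays were the lowest. The log2 fold change was 1.17 ± 0.73 (SE, adjusted p = 0.811).

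Single arrays moved the Glra1 value. Without wild-type replicate 2 the log2 fold change was 1.95 ± 0.35 (SE) with an adjusted p of 0.0871, without wild-type replicate 3 it was 0.68 ± 0.68, and without Npc1-/- replicate 4 and wild-type replicates 3 and 4 it was 0.28 ± 0.89. Within the 3 slides with both genotypes the differences were 2.74, -1.09 and 1.78, and the middle value came from the slide that held wild-type replicate 2.

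The summed signal of a list of brainstem markers was also high on wild-type replicate 2 and low on wild-type replicates 1 and 3. This summed linear signal was 0.808, 1.20, 1.43 and 1.95 on Npc1-/- arrays, against 0.327, 1.75, 0.334 and 0.552 on wild-type arrays. All 6 of its tested probes had higher means in Npc1-/- and 0 passed the test (median log2 fold change 1.50), with Hoxb5, a patterning gene of the posterior hindbrain and spinal cord, at 3.68 ± 1.83 and Tph2, the serotonin-synthesising enzyme of brainstem neurons, at 1.56 ± 0.83 (SE, both adjusted p = 0.811). Hoxb5 and Hoxb3 were each well above background on 4 Npc1-/- and 2 wild-type arrays, and Hoxa5 on 3 and 1. Such probes entered the test mainly through Npc1-/- arrays, where they were higher. The count of 6 and the median therefore cannot show a genotype difference. The markers did not all follow wild-type replicate 2. Hoxb5 had -5.08, -1.41, -0.26 and 0.15 on Npc1-/- arrays, against -7.77, -0.12, -7.91 and -5.51 on wild-type arrays. Hoxa5 and Hoxb3 were likewise highest on that array among the wild types, while Tph2 had -4.82 there, close to -5.05 and -4.76 on wild-type replicates 1 and 3. The Hoxc4 probe (0.17 ± 0.15) and the Hoxa3 probe A_52_P447935 (0.03 ± 0.21 SE) varied little. The oligodendrocyte and forebrain lists were also highest on wild-type replicate 2, at summed signals of 444 and 0.877. The granule cell list, at 122, was the lowest of the wild types there. The part of brainstem or other tissue in the Glra1, Gabra5 and Gabra3 values was not tested.

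**Figure D4:**
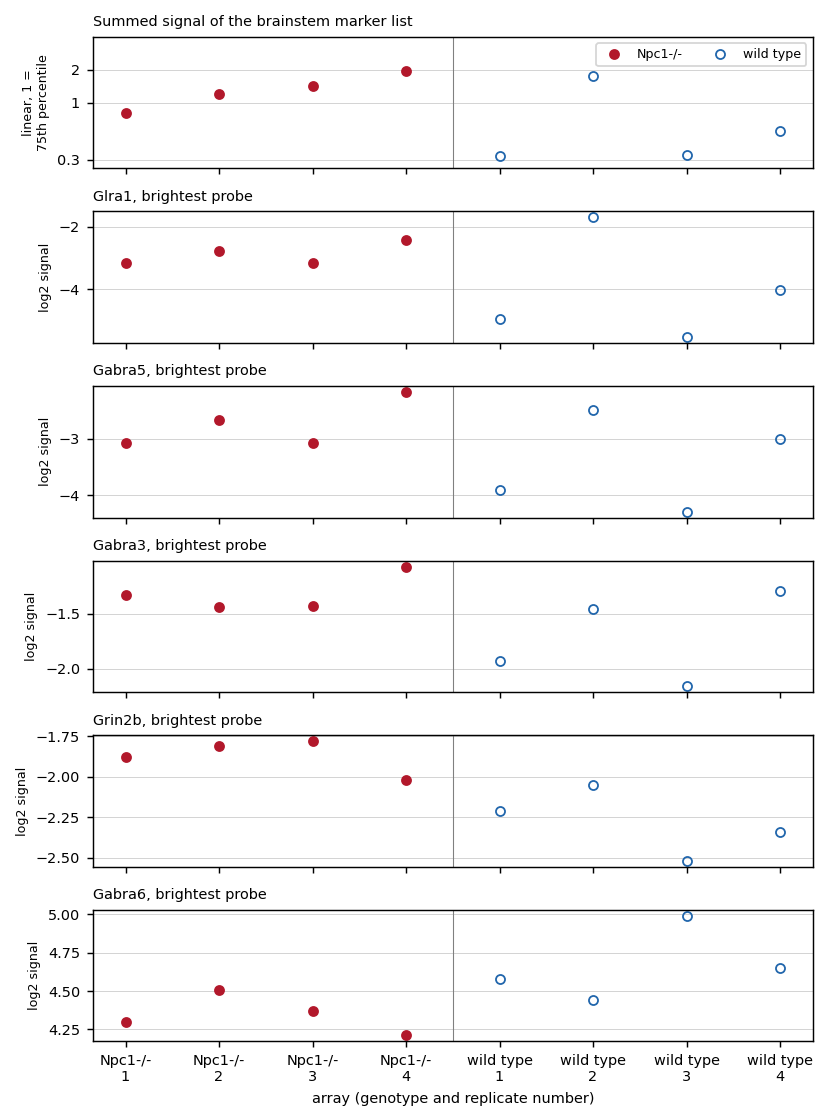
Values on each of the 8 arrays, Npc1-/- (filled red) left of wild type (open blue). The top panel is the summed linear signal of the brainstem marker list in units of the array's 75th percentile (log axis), and the others are log2 signals of the brightest probes of Glra1, Gabra5, Gabra3, Grin2b and Gabra6; wild-type replicate 2 is high and wild-type replicates 1 and 3 are low in the brainstem, Glra1 and Gabra5 panels.

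Glra2, the early alpha subunit, had -2.18, -2.15, -2.28 and -2.20 on Npc1-/- arrays, against -2.75, -2.92, -2.18 and -2.01 on wild-type arrays (0.26 ± 0.20 SE, adjusted p = 0.811). Wild-type replicates 1 and 2 were low and the others overlapped with Npc1-/-, and without wild-type replicate 2 the difference was 0.11 ± 0.18 (SE). Glrb, which ties glycine receptors to the scaffold gephyrin, was at -0.15 ± 0.11 (SE), with a range over arrays from 1.89 to 2.35. Both probes of Glra3 were well above background on no array.

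A shift between early and late subunits was looked for in 8 pairs, as the log2 signal of the later subunit minus that of the earlier one within each array. Scaling between arrays cancels in such a difference for most settings, while the value itself mixes probe and transcript, so only the genotypes can be compared. Because the pairs share members, they are not independent, and no test over them was made. The mean difference was lower in Npc1-/- in 6 of 8 pairs, and in 6 or 7 of 8 under other scalings or with any 1 array left out. The sizes moved more than the count. Without wild-type replicate 3, Grin2c minus Grin2d was at -0.11 (-0.40 with all arrays), Gabrd minus Gabra2 at -0.12 (-0.32), Gabra6 minus Gabra2 at -0.28 (-0.52), Gabra6 minus Gabra3 at -0.45 (-0.71) and Glra1 minus Glra2 at 0.32 (0.90). Each pair used the brightest probe of its members, and only for Grin2b was another probe tried. With Gabra2 A_52_P336171 (log2 fold change -0.19), Gabrd minus Gabra2 would change sign, as Gabrd was at -0.12. A probe outside the members, A_52_P62744, whose description names the Grin2a product, was at 0.66, above the 0.41 of Grin2b. The count of pairs thus depends on which probe stands for a subunit.

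Grin2c minus Grin2b was the one pair of the 8 whose genotypes did not overlap. It holds the Grin2b probe whose genotypes did not overlap by itself, so this is not a separate observation. How often differences between other probes fail to overlap was not computed. The pair was 7.15, 6.99, 7.27 and 7.07 in Npc1-/-, against 7.63, 7.34, 7.99 and 7.59 in wild type, a mean difference of -0.52. That difference ran from -0.62 to -0.31 over other scalings and with 1 array left out, and it rests on the AK002963 probe of Grin2b. All Npc1-/- arrays lay below all wild-type arrays, and Npc1-/- replicate 3 came closest to wild-type replicate 2. With the NM_008171 probe of Grin2b in place of the brightest one the mean difference was -0.57 (-0.82 to -0.20 over the same settings), and the genotypes overlapped. That probe was dim, well above background on 4 Npc1-/- and 3 wild-type arrays. Its own difference fell from 0.47 ± 0.28 to 0.12 ± 0.11 (SE) with normexp. Most of the -0.52 came from the Grin2b side, whose own difference was 0.41 where that of Grin2c was -0.11.

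Grin2a minus Grin2b was -2.32, -2.45, -2.52 and -3.10 in Npc1-/-, against -1.84, -2.70, -2.29 and -2.04 in wild type, a mean difference of -0.38 with overlap (-0.54 to -0.21 over the same settings). This pair and Grin2a minus Grin3a rest on the dim Grin2a probe. Gabra6 minus Gabra3 averaged 5.67 ± 0.29 in Npc1-/- and 6.37 ± 0.59 in wild type, and Gabra6 minus Gabra2 4.76 ± 0.39 in Npc1-/- and 5.28 ± 0.52 in wild type (SD, n = 4 each). Both of these overlapped between genotypes, and the second rests on the Gabra2 probe with the highest of the 3 differences above.

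Gabrd minus Gabra2 averaged 5.14 ± 0.25 in Npc1-/- and 5.46 ± 0.45 in wild type, and Grin2c minus Grin2d 5.80 ± 0.41 in Npc1-/- and 6.20 ± 0.59 in wild type (SD, n = 4 each). The pairs that ran the other way were Glra1 minus Glra2, at -0.68 ± 0.34 in Npc1-/- and -1.58 ± 1.95 in wild type, and Grin2a minus Grin3a, at -4.91 ± 0.50 in Npc1-/- and -4.99 ± 0.47 in wild type (SD, n = 4 each). In each of these the ranges overlapped. Glra1 minus Glra2 differed by 1.84 without wild-type replicate 2, and Grin2a minus Grin3a ran from -0.09 to 0.32 over the settings, so it changed sign.

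**Figure D5:**
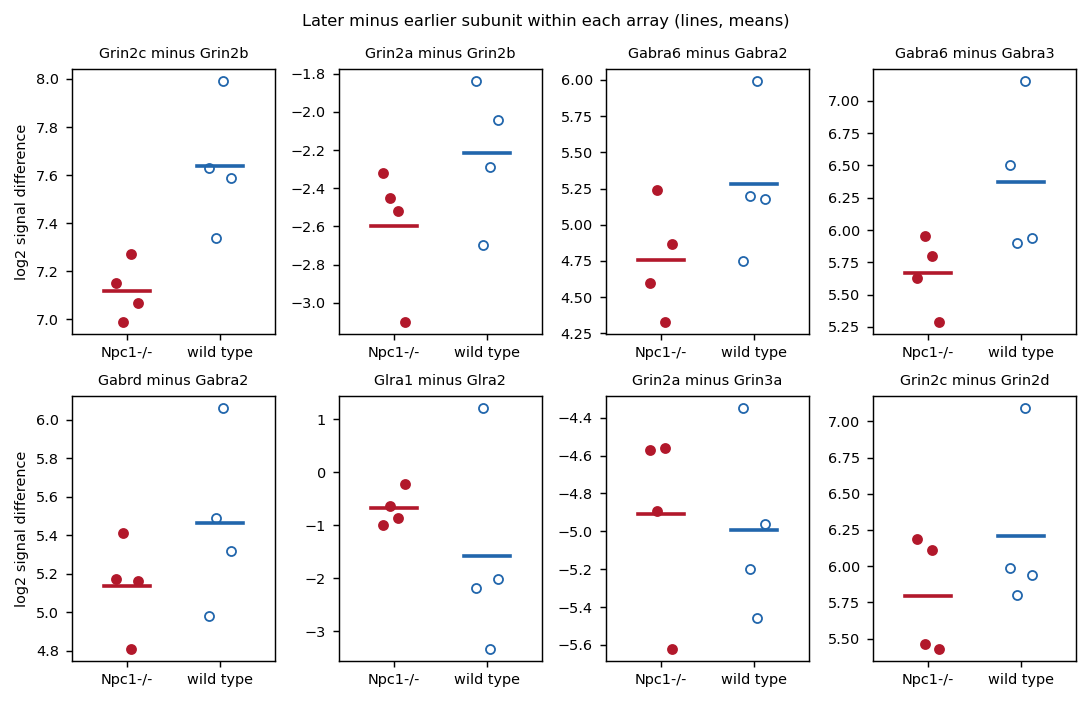
Log2 signal of the later minus the earlier subunit of 8 pairs on each array, Npc1-/- (filled red) left of wild type (open blue), with lines at the means and an axis for each panel that does not start at 0. In the Grin2c minus Grin2b panel the Npc1-/- arrays (6.99 to 7.27) lie below the wild-type arrays (7.34 to 7.99), and in the other 7 panels the genotypes overlap.

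The proteins that traffic, anchor or supply these receptors were read from lists of 31 excitatory and 18 inhibitory synapse genes. Of the 53 probes tested for 29 excitatory partners, 0 rose and 0 fell, where 0.523% of all probes were called. Their median log2 fold change was -0.07, with 20 above 0 and 33 below. The smallest p values were those of Cbln3, at -0.34 ± 0.12 (SE, adjusted p = 0.604), and Neto1, an auxiliary subunit of kainate receptors, at 0.56 ± 0.21 (SE, adjusted p = 0.65).

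Of the 31 probes tested for 18 inhibitory partners, 0 rose and 0 fell, beside the same 0.523% of all probes. Their median was 0.00, with 16 above 0 and 15 below. Gabarapl2, a relative of the GABA-A receptor trafficking protein, was at -0.26 ± 0.10 (SE, adjusted p = 0.723) at 1 probe and -0.17 ± 0.13 (SE) at the other. Gphn, which encodes the scaffold gephyrin, was at -0.23 ± 0.15 (SE, adjusted p = 0.811) at the probe with the smallest p, and its 4 tested probes disagreed in sign. Slc6a5, the glycine transporter of inhibitory terminals, had -0.94, -0.16, -0.14 and 0.48 on Npc1-/- arrays, against -1.23, 0.35, -1.24 and -0.89 on wild-type arrays, with wild-type replicate 2 high as for Glra1 (0.56 ± 0.41 SE, adjusted p = 0.811). It was named after its values were seen.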

How the data were processed

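The authors deposited intensity values as written by the scanner software; the submitters' processing notes name Agilent Feature Extraction 9.5. Background subtraction and spatial detrending had been applied to the processed signal, per the file headers, with no scaling from one array to another. The Illumina table was not used, and 16 of its columns were matched to no sample.

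Here each array's 75th percentile over non-control spots was subtracted on the log2 scale, spots with an outlier flag (74 to 115 an array) became missing, and spots of 1 probe were averaged. Saturation affected no such spot. Of 41174 probes, the 27164 above background on 4 or more arrays were fitted by genotype alone with lmFit and eBayes (limma 3.58.1, R 4.3.3; two-sided; Benjamini-Hochberg over all), a step tested on simulated data. With 4 arrays a genotype, each p-value weighs the mean difference against the spread between these arrays, as moderated by limma. Plots used matplotlib 3.10.9.

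The members, gene lists and pairs were chosen with earlier results of these data known. All 30 members are named. Values in every array are given for members in a pair and for those with a called probe, an unadjusted p under 0.05, groups that do not overlap or an absolute log2 fold change of at least 0.5. From the other lists given above, called genes and up to 2 with the smallest p are named. Marker lists of inhibitory interneurons, oligodendrocyte precursors, endothelium, choroid plexus and forebrain were also read. Apart from the forebrain sum on wild-type replicate 2 they are not described above, and 0 of their tested probes rose or fell. Symbols of 22951 probes were updated through RefSeq accessions (GRCm38.p6); 37 of the 52 member probes had an accession there and 0 had another symbol. Coordinates were copied from the files (mm7). Alternatives were other scaling, background correction, dim-probe filters, 1 probe a gene, blocks, array weights and arrays left out.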

Additional observations from a re-analysis of the deposited data

Results flagged for a closer look

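Among 126 groups of 4 arrays, 11 held an array whose distance to its nearest neighbour exceeded Dixon's 95% limit as a share of the group's range. The groups were each genotype at each member probe, at the tested Npc1 probe and in each pair. Pairs with the NM_008171 probe of Grin2b were included, so some groups share values. Chance alone flags about 1 group in 20. Wild-type replicate 2, the array with the fewest probes above background, stood above the other wild-type arrays at 4 dim probes: Grin2b A_52_P367017 at -3.14, Grin3a A_51_P146837 at -5.84, Grik3 A_52_P60243 at -4.91 and Gabrg1 A_52_P547896 at -6.01. Other probes well above background on no array also read higher there. A second Npc1 probe was at -5.96, against -7.84, -7.94 and -8.03 on wild-type replicates 1, 3 and 4. A probe of the partner Dlg2 was at -5.98, against -7.92, -8.0 and -8.14. The Grin3a and Gabrg1 values lay near that level. Wild-type replicate 3 stood below the others at Grin2d (-1.62) and Gabrg3 (-7.39), and its difference Grin2c minus Grin2d was the highest, at 7.09. Npc1-/- replicate 1 stood apart at Grik3 A_51_P258348 (-4.23), Gabrg3 (-5.46) and Glra3 A_51_P132578 (-7.97). Npc1-/- replicate 4 was low at Grin2a (-5.12, the other Npc1-/- arrays from -4.29 to -4.20). Of these probes, those of Grin2a and Grin2d were tested for a genotype difference and the others were too dim.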

How the results depend on the processing

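No member probe and no partner probe was called in any of the 19 alternatives. The smallest adjusted p among members ran from 0.0871 (Glra1 without wild-type replicate 2) to 0.881, and array weights gave 0.109 for Grin2b. The count of called probes over all features, 142 as reported, was 89 with arrays centred on their median, 90 with quantile normalization, 62 with no filter on dim probes, 85 with probes above background on all 8 arrays, 94 with the scan day as a block, 36 with the slide as a block, and 291 with array weights (251 higher and 40 lower in Npc1-/-, against 137 and 5). It was 57 to 148 with 1 array left out, lowest without Npc1-/- replicate 4 and highest without wild-type replicate 2, and 10 without Npc1-/- replicate 4 and wild-type replicates 3 and 4. The median log2 fold change of the members, 0.03 as reported, was -0.08 with arrays centred on their median, where the median over all probes was -0.12, -0.04 with array weights, and -0.05 to 0.08 with 1 array left out, so it has no settled sign. Member probes with an absolute log2 fold change of at least 0.5 numbered 3 as reported, 0 with normexp, 7 with no filter, and 2 to 6 with 1 array left out. In 759 fits of member probes, the sign changed in 74, from 22 of the 41 probes. The cause of these moves was not tested. The replicate numbers in the titles did not pair the arrays (correlations of deviations 0.167, 0.014, -0.459 and 0.182), and with the replicate block 26 probes were called over all features and 0 among the members. Of the 52 member probes, 11 were too close to background to be tested.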

Other observations

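A clone outside the 30 names may bear on Grin2a. The probe A_52_P62744, designed on AK080997 (chr16:9664359-9664418, mm7), carries a description that names the Grin2a product but no Grin2a symbol, so it was not a member. Its signals were 1.17, 0.89, 1.58 and 0.26 on Npc1-/- arrays, against 1.41, 0.73, -0.65 and -0.23 on wild-type arrays, with overlap (log2 fold change 0.66 ± 0.46 SE, adjusted p = 0.811). It was well above background on all 8 arrays, whereas the Grin2a probe averaged -4.47 in Npc1-/- and -4.50 in wild-type cerebellum. A second such probe, A_52_P609359 on AK032893, names the Glrb product and was well above background on 1 array.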
